A study of Mus musculus with 6 samples.

Results

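The binding of KLF3 and of 2 mutant forms was examined at the genes for collagen chains, laminin chains and integrin subunits. A peak in the combined table is a member when its nearest gene is a collagen (Col), laminin α, β or γ (Lama, Lamb, Lamc) or integrin (Itga, Itgb) gene by its symbol, leaving out the integrin-binding proteins Itgb1bp and Itgb3bp. The rule used the names alone and no measured value. It took 147 of 22188 peaks, which lie nearest to 60 genes, with 78 peaks at 33 collagen genes, 20 at 7 laminin genes and 49 at 20 integrin genes. Of these 147 peaks, 15 lie at promoters, which extend 1000 bp before and 100 bp past a transcription start site (TSS), and 132 lie elsewhere.

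Murine embryonic fibroblasts (MEFs) from Klf3-/- mice of the C57BL/6 strain received Klf3-V5, ΔDL-V5 or DBD-V5, so all 3 groups lack endogenous KLF3 and carry the same tag. ΔDL has 2 residues changed in the motif by which KLF3 contacts its corepressor CtBP. DBD has lost the N-terminal functional domain and keeps the zinc fingers and a putative nuclear localization signal. Each construct was delivered by an MSCV retrovirus under puromycin selection and studied in a clonal line, so a difference between constructs is also a difference between clones, and the 2 cannot be told apart. Anti-V5 chromatin immunoprecipitation with sequencing (ChIP-seq) was performed on 2 replicates per construct, each with an input. The files hold peaks and no expression values, so the fibroblast label could not be checked against marker genes, and a peak says nothing here about the activity of its gene.

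KLF3 is a zinc finger repressor of the Krüppel-like family, whose members bind CACCC boxes and related GC-rich sequences. Collagens form fibrils or networks, and fibroblasts are a main source of the fibrillar types I, III and V and of the beaded filament type VI. Laminins are trimers of an α, a β and a γ chain in basement membranes. Integrins are heterodimers of an α and a β subunit that join these proteins to the cytoskeleton, and the β1 subunit, encoded by Itgb1, pairs with most α subunits that bind collagen, laminin or fibronectin.

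Peak height is the authors' log2 value of the tags in 400 bp around the peak, normalized to 100 M tags, with both replicates of a construct counted together. Heights therefore carry no replicate error, and the standard error (SE) printed with a log2 difference covers counting error only. When heights are instead set to the same median over the 2334 peaks listed for all 3 constructs, here called the median scaling, every ΔDL difference from KLF3 moves by −1.06 and every DBD difference by −0.42 on the log2 scale. In these heights 1 tag is worth 4.29 normalized tags in KLF3, 8.45 in ΔDL and 6.23 in DBD. The combined depth was 16.0 M tags for DBD, 11.8 M for ΔDL and 23.3 M for KLF3. The KLF3 replicate lists rest on 5.46 M and 18.1 M tags, those of ΔDL on 1.77 M and 10.2 M, and those of DBD on 7.81 M and 8.38 M. The smallest score called in ΔDL replicate 1 was 7.82 on the log2 scale, against 6.10 to 6.58 in the other 5 lists. The authors listed only peaks that overlapped between the 2 replicates of a construct, so every listed member was called in both by construction. The reverse did not always hold, since 106 members were called in both KLF3 replicates with 105 listed, and 61 in both ΔDL replicates with 59 listed. Listing for ΔDL therefore had the highest limit. Across the members called in both replicates, the SD of a single replicate's log2 score was 0.40 for KLF3 (106 peaks), 0.43 for ΔDL (61 peaks) and 0.25 for DBD (28 peaks). This SD leaves out any shift shared by the peaks of a replicate. The median log2 score of replicate 1 minus replicate 2 was 0.62 in KLF3, 1.54 in ΔDL and 0.10 in DBD.

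The sequences below are the central 100 bp of peaks, read from the plus strand of mm9. They were chosen among the highest KLF3 peaks of the families, the peaks with the largest changes and the promoter peak listed for all 3 constructs. Capitals mark every match on either strand to the CACCC-type core (CACCC or CGCCC preceded by A or C) or to the AP-1 site (TGACTCA or TGAGTCA), and adjoining matches run together. The first set holds the highest KLF3 promoter peaks of laminin and collagen genes and the Itgb5 promoter.
Lamb2 promoter, chr9:108381263-108381362: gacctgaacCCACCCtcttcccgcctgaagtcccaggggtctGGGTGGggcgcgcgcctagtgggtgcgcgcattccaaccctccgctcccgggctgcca
Col6a2 promoter, chr10:76086155-76086254: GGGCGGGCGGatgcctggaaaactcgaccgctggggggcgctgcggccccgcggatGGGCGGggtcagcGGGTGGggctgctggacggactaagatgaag
Itgb5 promoter, chr16:33829653-33829752: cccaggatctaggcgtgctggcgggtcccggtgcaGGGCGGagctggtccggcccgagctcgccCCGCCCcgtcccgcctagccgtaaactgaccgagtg
These 3 windows hold 2, 4 and 2 cores, respectively. The next set holds the highest KLF3 peaks away from promoters at integrin and collagen genes, and the Col1a2 intron peak.
Itgb6 intron 1, chr2:60527209-60527308: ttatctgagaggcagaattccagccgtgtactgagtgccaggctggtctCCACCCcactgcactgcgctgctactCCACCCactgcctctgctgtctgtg
Col1a2 upstream, chr6:4369253-4369352: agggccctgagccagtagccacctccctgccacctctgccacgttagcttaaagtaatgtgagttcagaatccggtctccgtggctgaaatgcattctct
Col1a2 intron 1, chr6:4456987-4457086: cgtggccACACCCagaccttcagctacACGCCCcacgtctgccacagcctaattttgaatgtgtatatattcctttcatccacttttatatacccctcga
The Itgb6 and Col1a2 intron windows hold 2 cores each, while the upstream Col1a2 window holds no match to either sequence. The last set holds, among peaks with a log2 height of at least 8 in a construct compared, the sites with the largest fall in ΔDL and the largest rise in DBD, and the promoter peak listed for every construct.
Itga11 upstream, chr9:62472631-62472730: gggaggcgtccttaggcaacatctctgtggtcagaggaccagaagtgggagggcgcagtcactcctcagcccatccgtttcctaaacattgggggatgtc
Lama2 intron 1, chr10:27317162-27317261: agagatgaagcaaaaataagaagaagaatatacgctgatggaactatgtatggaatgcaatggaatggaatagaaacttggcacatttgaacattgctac
Col6a6 promoter, chr9:105730689-105730788: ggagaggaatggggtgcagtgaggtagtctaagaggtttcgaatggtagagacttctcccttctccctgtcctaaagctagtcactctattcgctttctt
None of these 3 windows holds a core or an AP-1 site, and the Lama2 window is the poorest in G+C of all those shown, at 35.0%.

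All 15 promoter peaks were listed for KLF3 and thus called in both KLF3 replicates. Of all promoter peaks of the table, 4259 of 4452 (95.7%) were listed for KLF3. The 15 belong to 8 collagen genes (Col1a2, Col4a1, Col5a1, Col6a2, Col6a6, Col8a1, Col14a1, Col16a1), 4 laminin genes (Lama3, Lamb1, Lamb2, Lamc1) and 3 integrin genes (Itga5, Itgb1, Itgb5). The chains include Lamb1 and Lamc1, which together with an α chain make the common laminins, and Itga5 and Itgb1, which form the classical fibronectin receptor. Their median height was 8.56 in KLF3, 7.61 in ΔDL and 5.80 in DBD on the log2 scale. The medians over all 4452 promoter peaks of the table were 8.32, 7.62 and 5.41.

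**Figure D1:**
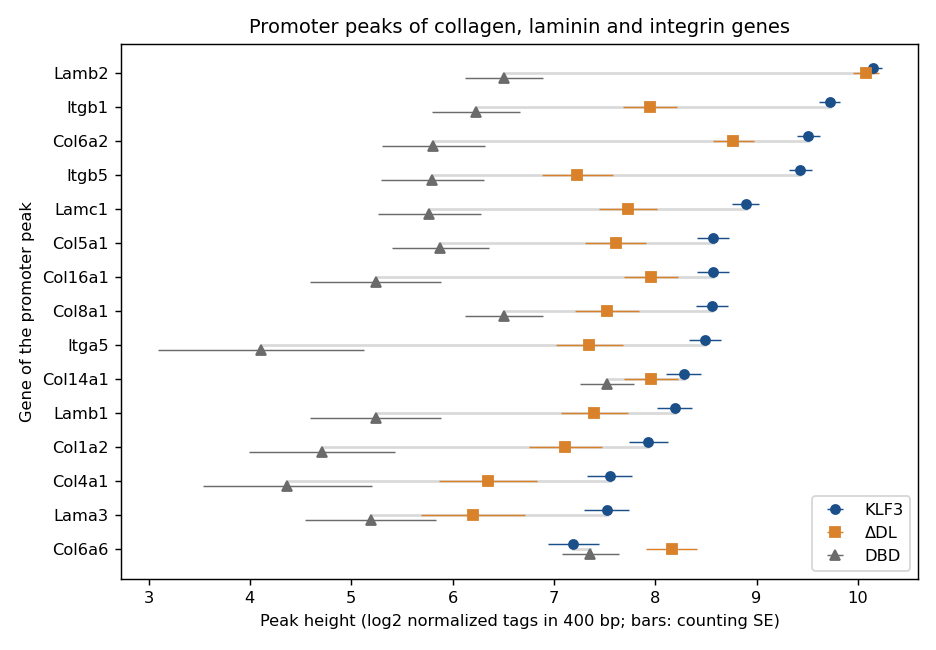
Heights of the 15 promoter peaks, on the log2 scale of normalized tags in 400 bp, for KLF3 (circles), ΔDL (squares) and DBD (triangles), with genes ordered by KLF3 height; bars are counting SEs. ΔDL lies below KLF3 for 14 genes and above it for Col6a6, where it is lower after the median scaling (−0.09), and Lamb2 has the highest peak in both, at 10.15 and 10.08.

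The highest promoter peak was at Lamb2, the β2 laminin chain, on chromosome 9 from 108381113 to 108381513, with its centre 880 bp upstream of the TSS. Its log2 height was 10.15 in KLF3, 10.08 in ΔDL and 6.51 in DBD. The KLF3 replicates called it with 54 and 150 tags and the ΔDL replicates with 16 and 73, while neither DBD replicate called it. KLF3 and ΔDL differed by −0.07 (SE 0.16), less than the SD of a single replicate, but by −1.13 after the median scaling, whereas DBD differed by −3.64 (SE 0.40).

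At Itgb1 the promoter peak, on chromosome 8 from 131209355 to 131209755 and centred on the TSS, had log2 heights of 9.72 in KLF3, 7.95 in ΔDL and 6.23 in DBD. The KLF3 replicates called it with 31 and 114 tags, ΔDL replicate 2 alone with 17, and no DBD replicate called it. The log2 difference of ΔDL from KLF3 was −1.77 (SE 0.29). It is the second highest promoter peak of the members, and its central 100 bp hold no CACCC-type core. In the central 200 bp all 3 integrin promoter peaks, this one included, held a core.

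The Itgb5 promoter peak, on chromosome 16 from 33829503 to 33829903, showed the largest fall among the promoters in ΔDL. Its heights were 9.43, 7.23 and 5.80 in KLF3, ΔDL and DBD, and the log2 differences from KLF3 were −2.20 (SE 0.37) and −3.63 (SE 0.52). The KLF3 replicates called 33 and 75 tags and ΔDL replicate 2 called 10. Itga5 had 8.49, 7.35 and 4.11, called with 12 and 37 tags in KLF3 and with 7 and 8 tags in ΔDL. All 3 integrin promoter peaks were thus at least 2-fold lower in ΔDL than in KLF3.

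Col6a2, a chain of the type VI filament, had the highest collagen promoter peak, on chromosome 10 from 76086005 to 76086405. Its log2 heights were 9.51 in KLF3, 8.77 in ΔDL and 5.81 in DBD, and it was called with 33 and 86 tags in KLF3 and with 9 and 23 in ΔDL. The promoter peaks of Col5a1 (8.57, 7.61 and 5.88) and Col16a1 (8.57, 7.96 and 5.24) came next, with ΔDL differences of −0.96 (SE 0.34) and −0.61 (SE 0.31). Of the other laminin promoters, Lamc1 had log2 heights of 8.89, 7.73 and 5.77 and Lamb1 8.19, 7.40 and 5.24. The Lamc1 difference of −1.16 (SE 0.32) in ΔDL was past 2-fold, and that of Lamb1, −0.79 (SE 0.37), was past it only after the median scaling, at −1.85.

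A pair of collagen promoters departed from the rest. Col6a6, on chromosome 9 from 105730539 to 105730939, was the only member promoter peak listed for all 3 constructs, with log2 heights of 7.19 in KLF3, 8.16 in ΔDL and 7.36 in DBD. It was called with 6 and 21 tags in KLF3, 11 and 28 in ΔDL, and 16 and 11 in DBD. The DBD difference was 0.17 (SE 0.38), within counting error, and −0.25 after the median scaling, where that of ΔDL turned from 0.97 to −0.09. Col14a1, on chromosome 15 from 55138492 to 55138892, was listed for KLF3 and DBD, with 8.28, 7.96 and 7.52, and the DBD replicates called 9 and 10 tags. These were the only member promoter peaks within 2-fold of KLF3 in DBD, with G+C contents of 51.9% and 49.1% against a median of 64.6% over the 15. After the median scaling Col14a1 differed by −1.18 in DBD, so that Col6a6 alone stayed within 2-fold.

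Counted with a 2-fold limit, 7 of the 15 promoter peaks (46.7%) were lower in ΔDL than in KLF3 and 0 were higher. Over all promoter peaks of the table, 33.7% were at least 2-fold lower and 0.854% higher. The median log2 difference was −0.96 for the members and −0.68 for all promoter peaks. In DBD, 13 of 15 (86.7%) were at least 2-fold lower, against 97.3% of all promoter peaks, and 0 were higher, as in the whole table (0%). The median DBD difference was −3.18 against −2.99. The counts depend on the scaling. After the median scaling 14 of 15 member promoters were at least 2-fold lower in ΔDL, against 85.6% of all promoter peaks, and 0 were higher, against 0%.

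The promoter annotation names 1 gene where the sequence can serve 2. At Col4a1 the peak from 11312568 to 11312968 on chromosome 8 covers start sites of the divergent genes Col4a1 and Col4a2. Its centre lies 58 bp downstream of the Col4a1 TSS and 37 bp from the nearest annotated GENCODE start of Col4a2. These genes encode the paired chains of the main type IV collagen network. The heights were 7.55, 6.35 and 4.37, and the ΔDL difference was −1.20 (SE 0.53). No other member promoter peak had the start site of a different protein-coding gene within 1000 bp of its centre.

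Most members lie away from promoters. Of the 132 other peaks, 79 lie inside the gene they are assigned to, 23 of them in its intron 1, 40 lie between genes and 13 lie inside another gene. The assignment goes by the nearest TSS, so 2 peaks assigned to Itga2 are in introns of its neighbour Itga1, 2 assigned to Col9a1 are in Col19a1, and 3 assigned to Itgb4 are in Sap30bp. Peaks within 10000 bp of the TSS numbered 25, those from there to 100000 bp 86, and those beyond it 21. The median distance was 40700 bp, against 43465 bp for all peaks outside promoters.

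Listing divided these peaks. KLF3 listed 105 of the 147 members (71.4%), ΔDL 59 (40.1%) and DBD 28 (19.0%), against 63.6%, 55.2% and 22.3% of the whole table. Outside promoters 70 peaks were listed for KLF3 alone, 12 for KLF3 and ΔDL, 8 for all 3 constructs, and 42 for ΔDL or DBD without KLF3. Of the 17736 peaks outside promoters in the whole table, 6001 were listed for KLF3 alone, 1509 for KLF3 and ΔDL, and 7880 without KLF3. The 70 had median log2 heights of 7.96, 7.46 and 5.54 in KLF3, ΔDL and DBD, a median G+C content of 49.1%, and a core in 39 (55.7%). The 42 had 6.27, 7.33 and 6.71, a G+C content of 38.7%, and a core in 7 (16.7%). Over the whole table, peaks outside promoters listed for KLF3 alone had medians of 7.87, 7.36 and 5.29 with a core in 58.6%, and those listed without KLF3 had 6.24, 7.31 and 6.66 with a core in 8.69%. A peak is listed for a construct because it was called there, so the height medians of these classes follow in part from the grouping itself. G+C content, core and the listing moved together in the members as they did in the table, and the part of G+C content and core in the height differences was not tested.

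**Figure D2:**
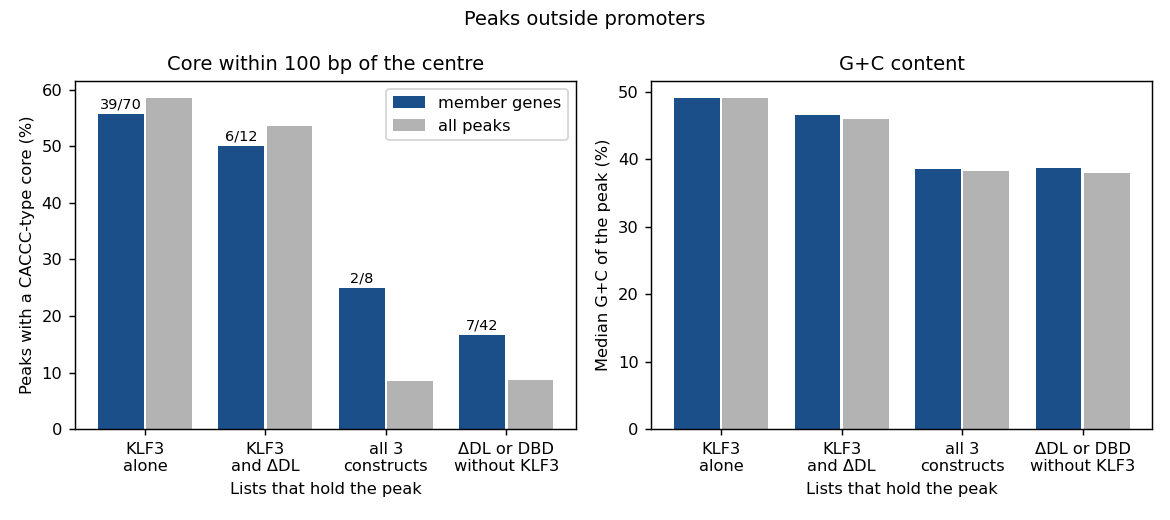
Share of peaks outside promoters with a CACCC-type core within 100 bp of the centre (left, percent) and median G+C content of the peak (right, percent), by the construct lists that hold the peak, for the member genes (blue, with counts) and for all peaks (grey). Both quantities are lower in the peaks listed for all 3 constructs or without KLF3; the 2 of 8 and 7 of 42 members with a core are small counts.

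The 8 members outside promoters listed for all 3 constructs were at Col1a2, Col9a1, Col12a1, Col19a1, Col22a1, Itga2 (2 peaks) and Itgb3. Both Itga2 peaks, in introns 15 and 12 of Itga1, were called with 12 tags or more in all 6 replicate lists. The one in intron 12 had log2 heights of 7.06 in KLF3, 8.24 in ΔDL and 7.46 in DBD. The one in intron 15 had 7.02, 8.07 and 7.91. The Col9a1 peak, in intron 48 of Col19a1, was likewise called with 15 tags or more in every list and had 7.39, 8.19 and 7.60. Collagen IX decorates cartilage fibrils, and Itga1 and Itga2 encode the α subunits of collagen receptors.

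Outside promoters, 15 of 132 members (11.4%) were at least 2-fold lower in ΔDL and 32 (24.2%) at least 2-fold higher, against 10.2% and 35.9% of all such peaks. Of the 32 higher peaks, 8 were listed for KLF3. After the median scaling 59 (44.7%) were lower and 0 higher, against 32.3% and 0.496%. In DBD, 80 (60.6%) were at least 2-fold lower and 4 (3.03%) at least 2-fold higher, against 41.3% and 4.09%. KLF3-listed peaks made up a larger share of the members than of the table, and the part of this in these counts was not tested.

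**Figure D3:**
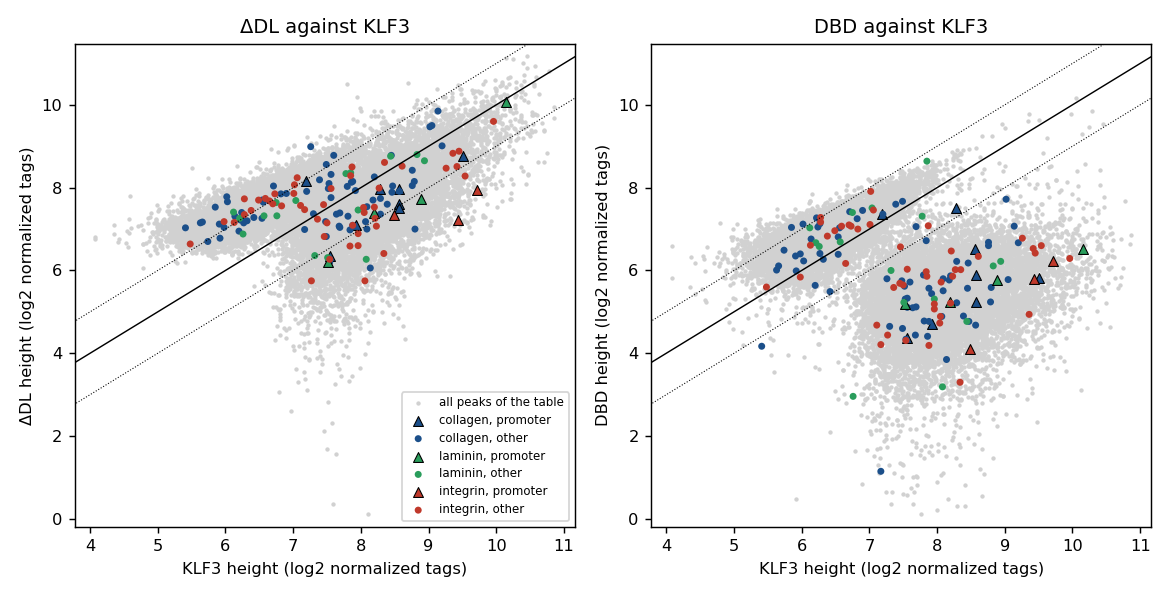
Height in ΔDL (left) and in DBD (right) against height in KLF3, all on the log2 scale of normalized tags, for the members by family (triangles, promoters; circles, other peaks) over all 22188 peaks (grey); the solid line marks equal heights and the dotted lines a 2-fold difference. In DBD the 15 promoter members lie below the lower dotted line except Col6a6 and Col14a1, and a second set of members lies along the line of equal heights.

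Itgb5 had the most peaks of the members, 9, of which 8 lie in its introns. The β5 subunit pairs with αv in a vitronectin receptor. The 2 highest of these lie on chromosome 16 from 33892124 to 33892524, in intron 5, with log2 heights of 9.54, 8.28 and 6.60 in KLF3, ΔDL and DBD, and from 33878147 to 33878547, in intron 4, with 9.45, 8.88 and 6.42. The former overlaps the neighbouring peak that starts at 33891736 by 13 bases, so that tags there are shared. Replicates 1 and 2 of KLF3 called 32 and 76 tags at it, and no ΔDL replicate called it. At the 9 sites the ΔDL difference ran from −2.20 at the promoter to 0.63 in intron 2, and the DBD difference from −4.42, in intron 5 at 59573 bp from the TSS, to −0.79. After the median scaling ΔDL was below KLF3 at all 9 sites, with differences of −3.26 to −0.43, and DBD was below KLF3 at all 9 on either scale.

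Col1a2, the α2 chain of type I collagen, had 7 peaks, of which 5 lie upstream at 15660 to 86394 bp from the TSS. The farthest, on chromosome 6 from 4369103 to 4369503, was the highest collagen peak outside promoters, at 9.20 in KLF3, 9.01 in ΔDL and 6.67 in DBD, and was called with 26 and 56 tags in KLF3, with 32 in ΔDL replicate 2 and with 8 in DBD replicate 2. In intron 1, 1340 bp from the TSS, the peak from 4456837 to 4457237 had 9.02, 9.47 and 7.72 and was called in all 6 lists, with 26 and 66, 10 and 43, and 10 and 8 tags. The promoter peak 278 bp upstream of the TSS was lower than this neighbour in every construct, at 7.93, 7.11 and 4.71. Its ΔDL difference was −0.82 (SE 0.41), against 0.45 (SE 0.21) in the intron, which became −1.88 and −0.61 after the median scaling. Col1a1, which encodes the partner chain, had no promoter peak in the table. Its 4 peaks lie from 15075 bp upstream to 708 bp downstream of the TSS, with KLF3 heights of 7.49 to 8.79, and all were lower in ΔDL, by −0.67 to −0.34, and in DBD, by −3.89 to −2.16.

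**Figure D4:**
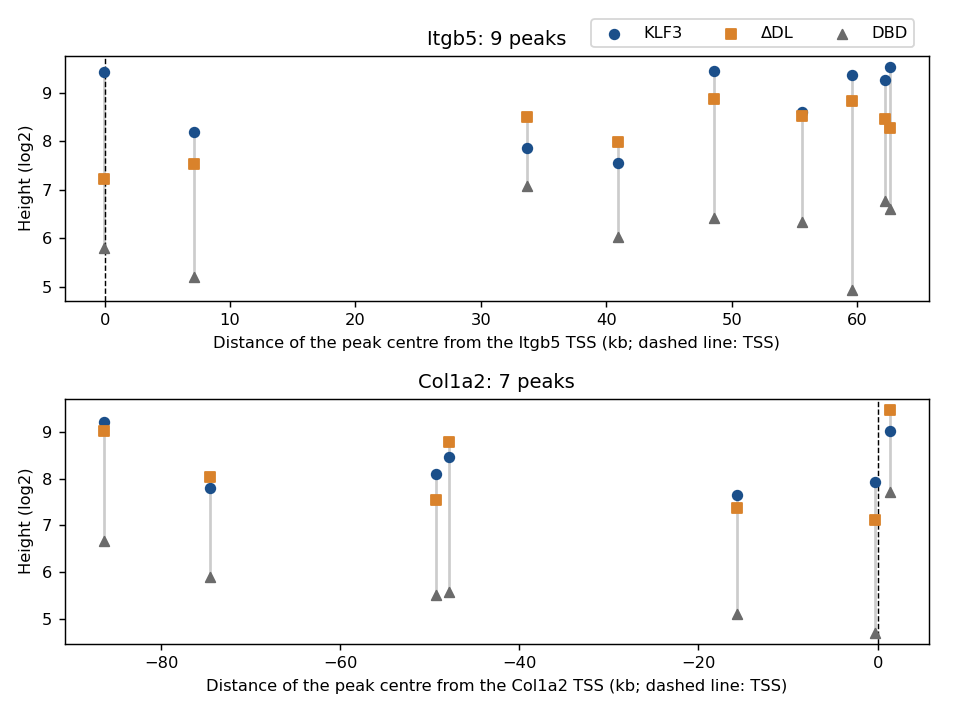
Heights on the log2 scale at the peaks assigned to Itgb5 and Col1a2, against the distance of the peak centre from the TSS in kb, for KLF3 (circles), ΔDL (squares) and DBD (triangles); grey lines join the values of a peak. DBD is the lowest of the 3 at all 16 peaks, while ΔDL lies above KLF3 at 5 of them, each of which is below KLF3 after the median scaling.

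The highest KLF3 peak outside promoters was at Itgb6, an epithelial β subunit, on chromosome 2 from 60527059 to 60527459, in intron 1 of a longer transcript and 15509 bp upstream of the TSS used for the distance. It had log2 heights of 9.96 in KLF3, 9.60 in ΔDL and 6.29 in DBD, and was called with 32 and 105 tags in KLF3 and 5 and 42 in ΔDL. The ΔDL difference, −0.36 (SE 0.18), was smaller than the SD of a single replicate, but was −1.42 after the median scaling. For collagens, Col6a1 (9.14, 9.85 and 7.07, 2515 bp upstream of the TSS) and Col18a1 (9.05, 9.50 and 5.78, 44787 bp upstream) followed Col1a2. Their ΔDL differences were 0.71 (SE 0.19) and 0.45 (SE 0.20), which turned to −0.35 and −0.61 after the median scaling, and both were listed for KLF3 and ΔDL.

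Among peaks with a log2 height of at least 8 in a construct compared, the largest falls in ΔDL were at Itga11, the Itgb5 promoter and Col8a2. Itga11 encodes a collagen receptor subunit of fibroblasts. Its peak, on chromosome 9 from 62472481 to 62472881 and 52981 bp upstream of the TSS, had 8.06, 5.75 and 5.72, called with 8 and 28 tags in KLF3 and in no mutant replicate. The ΔDL difference of −2.31 (SE 0.62) rests on 6 ΔDL tags. The Col8a2 peak in intron 2 had 8.14, 6.06 and 3.85, and another peak in the same intron, 13324 bp from the TSS against 14296 bp, had 5.41, 7.03 and 4.17 and was listed for ΔDL alone. These neighbours had ΔDL differences of opposite sign, −2.08 (SE 0.57) and 1.62 (SE 0.61). The former is listed for KLF3 alone and the latter for ΔDL alone, so the signs follow in part from the listing. After the median scaling the differences were −3.14 and 0.56, the latter within its counting error.

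In the same height range the largest rises in ΔDL were at Col5a2, Col3a1 and, with an equal difference of 1.18, Itga2 and Col12a1. The Col12a1 peak, in intron 35 and listed for KLF3, had 7.60 in KLF3 and 8.78 in ΔDL. Col5a2, the α2 chain of type V collagen, had a peak in intron 1 with 7.26 in KLF3, 8.99 in ΔDL and 5.80 in DBD. The difference of 1.73 (SE 0.31) was the largest of this height range, and the peak was called with 12 and 13 tags in KLF3 and with 40 in ΔDL replicate 2, but not in ΔDL replicate 1, so it is not listed for ΔDL. Col3a1, the type III chain, had a single peak, 33950 bp upstream of the TSS, with 6.71, 8.04 and 7.42. It was called with 11 tags in KLF3 replicate 1 alone, with 10 and 17 in ΔDL and with 12 and 11 in DBD, and is listed for ΔDL and DBD. After the median scaling the Col5a2 and Col3a1 differences became 0.67 and 0.27, and those of Itga2 and Col12a1 became 0.12.

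In DBD the largest falls of this height range included those at Itgb4 (−5.04, SE 1.45) and Itgb5 (−4.42, SE 0.73). The Itgb4 peak lies in the 3′ UTR of Sap30bp, 9517 bp upstream of the Itgb4 TSS, had 8.34, 6.41 and 3.30, and holds 1 DBD tag. The size of this fall is therefore poorly fixed. Only 1 member of this height range was higher in DBD than in KLF3. At Lama2, the α2 chain of muscle laminin, the peak in intron 1 on chromosome 10 from 27317012 to 27317412 had 7.85 in KLF3, 8.36 in ΔDL and 8.64 in DBD. The difference was 0.79 (SE 0.27), but DBD replicate 2 called it with 38 tags and DBD replicate 1 did not call it, so the call rests on 1 library. How the 63 DBD tags behind the height divide between the replicates is not known. The next values by this rule were falls, −0.76 at the Col14a1 promoter and −1.30 at the Col1a2 intron.

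The classes of each family are given beside the whole table, where 63.6% of peaks were listed for KLF3 and 55.2% for ΔDL, and differences between classes were not tested. The 25 peaks of fibrillar collagens had median log2 heights of 7.93, 7.70 and 5.62, and 22 were listed for KLF3. The 19 peaks of fibril-associated collagens, which coat the surface of other fibrils, had 6.82, 7.66 and 6.27, with 10 listed for KLF3 and 13 for ΔDL. Of the 9 type VI peaks 7 were listed for KLF3, and of the 9 type IV peaks 7. Laminin α genes had 9 peaks with a median of 6.76 in KLF3, 7.41 in ΔDL and 6.69 in DBD, and 4 were listed for KLF3. The 29 peaks of integrin β genes had 8.04, 7.68 and 6.29, and 22 were listed for KLF3.

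All 4 peaks of Itga5 were at least 2-fold lower in ΔDL, with differences of −1.36 to −1.07, and those of Itgb4 ranged from −1.93 to −0.52. The 3 peaks of Itgb3, the platelet and osteoclast β subunit, had differences of 0.73 to 1.21 in ΔDL and of 0.17 to 0.89 in DBD, which became −0.33 to 0.15 and −0.25 to 0.47 after the median scaling, and all 3 were listed for ΔDL and DBD. Itga5 and Itgb4 peaks were listed for KLF3 alone. Of the 60 genes, 46 had a KLF3-listed peak, 22 had a single peak and 8 had 5 or more. Itgbl1, which resembles an integrin β chain but is not a receptor subunit, had 2 peaks in intron 2. One had 7.85, 8.29 and 5.86 and was listed for KLF3, and the other had 6.38, 7.45 and 6.83 and was listed for ΔDL.

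Within 100 bp of the centre, 12 of 15 promoter members (80.0%, Wilson 95% interval 54.8 to 93.0) held a CACCC-type core, against 83.1% of all promoter peaks of the table. Of the 132 other members, 54 did (40.9%, 32.9 to 49.4), against 29.4% of all peaks outside promoters. For the 90 listed for KLF3 these shares were 52.2% and 46.0%, and for the 42 not listed for it 16.7% and 8.69%. An AP-1 site was present in 0 of 15 promoter members, which allows a share of up to 20.0%, and in 18 of 132 others (13.6%, 8.80 to 20.5), against 1.95% and 9.15% of the table. By family, 23 of 46 integrin peaks outside promoters held a core, with an interval of 36.1 to 63.9%, as did 28 of 70 collagen peaks (29.3 to 51.7%) and 3 of 16 laminin peaks (6.59 to 43.0%), and the 3 intervals overlapped. Outside promoters the 54 members with a core had median log2 heights of 8.07, 7.81 and 5.86, and the 78 without one had 7.14, 7.46 and 6.37. A match is a run of letters and was not tested as a binding site.

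Numbers of peaks could be compared over replicates. KLF3 replicates 1 and 2 held 190 and 183 peaks at these genes, ΔDL 90 and 195, and DBD 46 and 42. Per 1000 peaks of the list these were 7.10 and 7.67, 5.23 and 5.98, and 5.02 and 5.18, so that the KLF3 lists lay above the other 4. At promoters KLF3 held 20 and 21 peaks, ΔDL 5 and 13, and DBD 2 and 2, which are 10.5% and 11.5%, 5.56% and 6.67%, and 4.35% and 4.76% of these peaks. Over the whole lists promoter peaks made up 20.0% and 31.0% in KLF3, 7.37% and 15.9% in ΔDL, and 1.59% and 2.80% in DBD. The KLF3 and ΔDL lists did not overlap in member promoter peaks or in their share, as was also so for the whole lists, and the members' share in KLF3 was below that of the list. They did overlap in the number of member peaks. A two-sided exact permutation test of 2 against 2 lists gave p = 0.333 for promoter peaks in ΔDL and in DBD, which is the smallest p that this design allows, and p = 1.00 for all peaks in ΔDL. ΔDL replicate 1 had the fewest tags, and the part of depth in these counts was not tested.

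**Figure D5:**
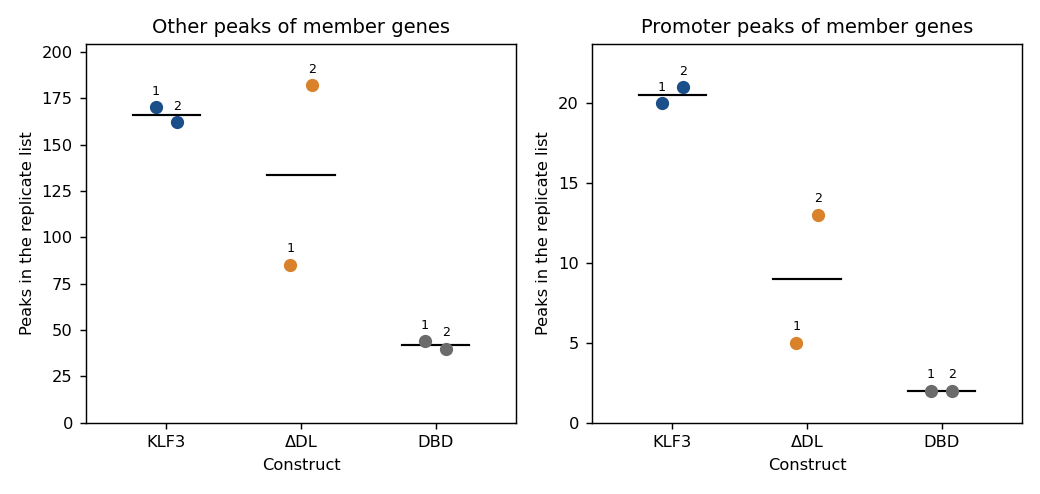
Number of peaks at the member genes in each replicate list, outside promoters (left) and at promoters (right), by construct; points are labelled with the replicate number and lines mark the mean of 2 lists. At promoters the KLF3 lists hold 20 and 21 peaks and lie above the ΔDL lists, at 5 and 13, and the DBD lists, at 2 and 2, as do the shares of promoter peaks in the whole lists.

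All 105 members listed for KLF3 were called in both KLF3 replicates, which the listing required. Of the 90 such peaks outside promoters, 21 were also called in both ΔDL replicates, 41 in ΔDL replicate 2 alone and 28 in neither. In DBD, 8 were called in both replicates, 6 in a single one and 76 in neither. Of the 42 members not listed for KLF3, 1 was called in both KLF3 replicates, 20 in a single one and 21 in neither, so that listing without KLF3 did not always mean that no KLF3 peak was called. These replicate calls were counted for the members alone, so whether they differ from the whole table was not tested. By listing, 70 of the 90 members were held for KLF3 alone, against 6001 of the 9856 KLF3-listed peaks outside promoters in the whole table.

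The same heights were read at 69 genes that act with these proteins, of which 52 had 158 peaks. Over 21 matrix glycoproteins and proteoglycans, such as fibronectin and the nidogens, 17 had peaks, and 41 of these 54 peaks were listed for KLF3. At genes for collagen processing and turnover, the chaperones, hydroxylases, cross-linking enzymes and proteases, 15 of 23 had 31 peaks, of which 29 were listed for KLF3. At genes for the adaptors and kinases of integrin adhesions, 20 of 25 had 73 peaks, with 63 listed for KLF3, where the share over the whole table was 63.6%. Across the 22 promoter peaks of these lists, of which 21 were listed for KLF3, 12 were at least 2-fold lower in ΔDL and 0 higher. The medians of the 22 were 8.22, 7.12 and 5.13, and all 22 were at least 2-fold lower in DBD. Over all promoter peaks 33.7% were lower and 0.854% higher in ΔDL, and 97.3% lower in DBD. Their 136 other peaks had 30 lower and 20 higher in ΔDL, and 99 lower and 3 higher in DBD, against 10.2% and 35.9% in ΔDL and 41.3% and 4.09% in DBD over all peaks outside promoters. After the median scaling 84 of the 136 were lower and 0 higher in ΔDL, against 32.3% and 0.496%. Of the 136, 112 (82.4%) were listed for KLF3, against 55.6% of all peaks outside promoters, and the part of this in these counts was not tested.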

How the data were processed

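Anti-V5 ChIP-seq peaks of 3 constructs in Klf3-/- MEFs were analysed, from the table of all peaks, 3 merged lists and 6 replicate lists. A deposited sample stands for a construct with its 2 replicates, which the lists number. Nothing in the labels ties replicate numbers to shared cultures. Bowtie2 2.0.0 and SAMtools 0.1.18 served the authors for alignment to mm9, after which they called peaks per replicate with HOMER 4.1 against the paired input, and annotated them with RefSeq. Heights are log2 values of tags in 400 bp, which the authors normalized to 100 M tags with replicates combined. The deposited peak scores are a signal in tags per 100 M tags of a replicate, or the mean of both in merged lists. G+C was deposited as a fraction and conservation as a score by the authors. The input libraries were not used here.

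Tags behind a list were taken from the step of which its scores are whole multiples (100% of values in each list). The same peak has slightly different heights in 2 files, by an SD of 0.405 to 0.464 tags, so tags behind a height were rounded down. G+C of 1999 of 2000 peaks equalled that of the mm9 sequence, which settled the build. Counting SEs treat tags as independent molecules. Host genes came from the files' RefSeq identifiers, and neighbouring start sites from GENCODE protein-coding transcripts on mm9. Peaks overlapped with at least 1 bp in common. Intervals are 95% Wilson intervals, over peaks, and cover counting error only. Called peaks give no counts at every site, so no count test was run.

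The peaks named are, in each family, the 3 highest KLF3 promoter peaks and the 3 highest others; the 3 largest falls and rises of each mutant where a construct compared reached a log2 height of 8; the 3 genes with most peaks; promoter peaks listed for all 3 constructs; and Itgbl1. A gene and a sequence that this rule takes are not reported here. Other peaks were named after their values were seen. The members, lists and alternatives were chosen with earlier results of these data known. Code was tested on simulated data. The tools were scipy 1.17.1, pysam 0.24.0, pandas 2.3.3, numpy 2.4.6 and matplotlib 3.10.9 under Python 3.11.15.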

Additional observations from a re-analysis of the deposited data

How the results depend on the processing

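Of 123 alternative values over 27 results, 85 kept their direction and stayed within their limit, 34 moved and 4 reversed. With heights scaled to the same median, ΔDL was at least 2-fold lower at 14 promoter and 59 other members with medians of −2.02 and −0.78, the latter reversed, and 0 other members were higher; in DBD 0 other members were higher. At a fold of 1.5, ΔDL was lower at 12 promoter members and higher at 1, lower at 34 other members and higher at 53, and DBD higher at 14 others. At a fold of 4, ΔDL was lower at 1 promoter and 2 other members and higher at 0 others, and DBD higher at 0 others. With a log2 height of at least 8 in either construct, 8 other members were lower and 6 higher in ΔDL, and its median reversed to −0.34; in DBD 41 were lower and 0 higher, with a median of −2.80. With only the highest peak per gene and region, 8 other members were lower and 13 higher in ΔDL, and 38 lower in DBD. With only KLF3-listed peaks, 8 others were higher in ΔDL with the median reversed to −0.35, and in DBD 0 were higher with a median of −2.44. These settings test fewer peaks or move the limit by construction. In the upper 50% of members by KLF3 height, 98.6% were listed for KLF3, 16.2% for ΔDL and 4.05% for DBD. A core lay within 200 bp in 93.3% of promoter and 52.3% of other members, a 7-base core in 25.8% of the others, and an AP-1 site within 200 bp in 22%.

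In the upper 50% of each replicate list DBD held 86.0 fewer members than KLF3 (−86.0) and differed by −15.0 at promoters. Leaving out a replicate number gave ΔDL minus KLF3 of −100.0 to 12 members, reversed without replicate 1, and −15.0 to −8.0 at promoters; DBD minus KLF3 ran from −144.0 to −141.0, and from −19.0 to −18.0 at promoters. The replicate block gave the same means, −44.0 and −142.5, and the numbers mark no shared culture. ΔDL replicate 1 held the fewest tags, 1.77 M, and a DBD height near 3 rests on 1 tag, so that falls to such heights are poorly fixed. The cause of these changes was not tested.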

Other observations

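Some genes of the families had no peak in the table of all peaks. Of 84 genes considered by name, 24 had none, and 16 of these had no peak in any replicate list either, among them Col2a1, the cartilage fibrillar chain, and the laminin chains Lama1, Lama5 and Lamb3. The remaining 8 had peaks in replicate lists that were not carried into the table. Itga7, a laminin receptor subunit of muscle, had a peak in each KLF3 replicate and 1 and 2 peaks in the ΔDL replicates. Col28a1 had peaks in 4 lists, 1 in each KLF3 replicate, 2 in ΔDL replicate 2 and 1 in DBD replicate 1. Itgb2, the leukocyte β subunit, had 2 peaks in KLF3 replicate 2 and 1 in ΔDL replicate 2. Of the leukocyte α subunits Itgad, Itgae, Itgal, Itgam and Itgax, Itgal alone had a peak, in ΔDL replicate 2.

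Conservation could be read for 12 of the 15 promoter members and 75 of the 90 other KLF3-listed members, those whose interval is the same in the merged KLF3 list. The median score was 0.285 at the promoters and 0.110 elsewhere, against 0.220 and 0.110 over all KLF3 peaks.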
